A study of Homo sapiens with 6 samples.

Results

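The mitochondrial ribosomal protein (MRP) genes were examined in SW480 cells after knockdown of the splicing factor RBM39. Members were chosen by symbol alone, as every row of the gene table whose name is MRPL or MRPS followed by a number and at most 1 letter from A to C. This gave 78 genes among the 56303 rows of the table, 49 named MRPL and 29 named MRPS, and all 78 were among the 18243 genes that had enough counts to be tested.

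The mitochondrial ribosome is a ribosome inside the mitochondrion that translates the few proteins encoded by the mitochondrial genome, all of them parts of the respiratory chain and ATP synthase. Its protein subunits are encoded in the nucleus, made in the cytosol and imported, whereas its ribosomal RNAs come from the mitochondrial genome. MRPL genes carry the letter of the large subunit, which forms peptide bonds, and MRPS genes that of the small subunit, which decodes the messenger. A part of the subunits descends from bacterial ribosomal proteins, and the rest were added in the mitochondrial lineage.

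SW480 is an established human colorectal cancer line. Libraries were made from cells carrying a nonsilencing short hairpin (shCtrl, genotype given as WT, 3 libraries) and from cells carrying a hairpin against RBM39 (shRBM39, genotype given as RBM39 knockdown, 3 libraries). Per the study's methods, hairpins were delivered by lentivirus and stable clonal lines were selected with puromycin, so all 6 libraries share infection and selection, and an effect of the line cannot be told apart from that of the hairpin. The study's methods describe 3 replicate experiments per group, and the labels number them without saying more of the cultures, so p-values measure the spread between these libraries.

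Library totals ran from 18042924 to 20428901 counts. RBM39 itself was at 441, 448 and 435 CPM (counts per unit of library size, scaled by edgeR's TMM factors) in shCtrl and at 266, 276 and 292 CPM in shRBM39, a log2 fold change of -0.67 ± 0.04 (SE; edgeR quasi-likelihood test, adjusted p = 1.24e-16). Of 10 markers of intestinal epithelium, 9 could be tested, and 3 were called higher and 4 lower in shRBM39. EPCAM and KRT8 were at means of 591 and 6924 CPM in shCtrl, while the intestinal regulator CDX1 was near 0 (mean 0.0479 CPM), so not every intestinal marker was present. The intestinal regulator CDX2 fell from a mean of 21.7 to 4.95 CPM, CDH17 and CDH1 fell by 1.34 and 0.39 on the log2 scale, and KRT20 and KRT8 rose by 1.82 and 0.43. The part of this change in the results on MRP genes was not tested. Of 10 markers of leukocytes, fibroblasts, endothelium and hepatocytes, 6 stayed under a mean of 0.1 CPM in both groups, PTPRC being at 0 in all 6 libraries. Their summed level was 26.1 to 26.4 CPM in shCtrl and 32.1 to 36.2 CPM in shRBM39, carried mostly by CD68 and COL1A1, and its part was likewise not tested.

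As a group, MRP messengers took a larger share of the library after RBM39 knockdown. Their summed level was 4136, 4033 and 4048 CPM in shCtrl and 5178, 5249 and 5328 CPM in shRBM39 (mean 4072 ± 55.6 and 5252 ± 75.04 CPM, SD, n = 3). The lowest shRBM39 library lay above the highest shCtrl library. As a share of all counts, which uses no scaling factor, MRP genes held 0.427%, 0.423% and 0.423% in shCtrl and 0.497%, 0.501% and 0.510% in shRBM39. Levels are relative to the library, so more of these messengers and less of other RNA cannot be told apart. Since bulk RNA was measured, neither can a changed mix of cells and a change within each cell.

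Of the 78 members, 66 were higher and 2 were lower in shRBM39 at an adjusted p under 0.05 (edgeR quasi-likelihood test, Benjamini-Hochberg adjustment over all genes tested), and 10 did not pass the test. Over all genes tested, 59.1% passed, 29.2% as higher and 29.9% as lower. Among the 9767 genes whose mean CPM lay within the range of the members, 71.1% passed, 37.5% as higher and 33.6% as lower. The share of members called was therefore above the background mainly in the direction of higher levels. The 2 groups of libraries did not overlap for 70 members, 68 of them higher in shRBM39, against 63.3% of all genes, 31% as higher. The median log2 fold change of the members was 0.38 (30.5% higher), compared with -0.01 over all genes tested, and the interquartile range of the members was 0.20 to 0.55.

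Most changes were small, and a few were not. When changes were tested for exceeding 0.5 on the log2 scale, 15 members passed and all were higher, beside 12.2% of all genes in either direction and 5.65% as higher. Scaling by library totals alone moved the median over all genes from -0.01 to -0.14, and then 53 members were called higher and 5 lower. With that scaling the share of calls that were higher fell from 49.4% to 33.9% over all genes, and from 97.1% to 91.4% over the members. A change of scaling factors shifts the log2 fold changes of all genes by about the same amount. The difference between the median of the members and that of all genes therefore stayed at 0.40, which is no separate check.

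**Figure D1:**
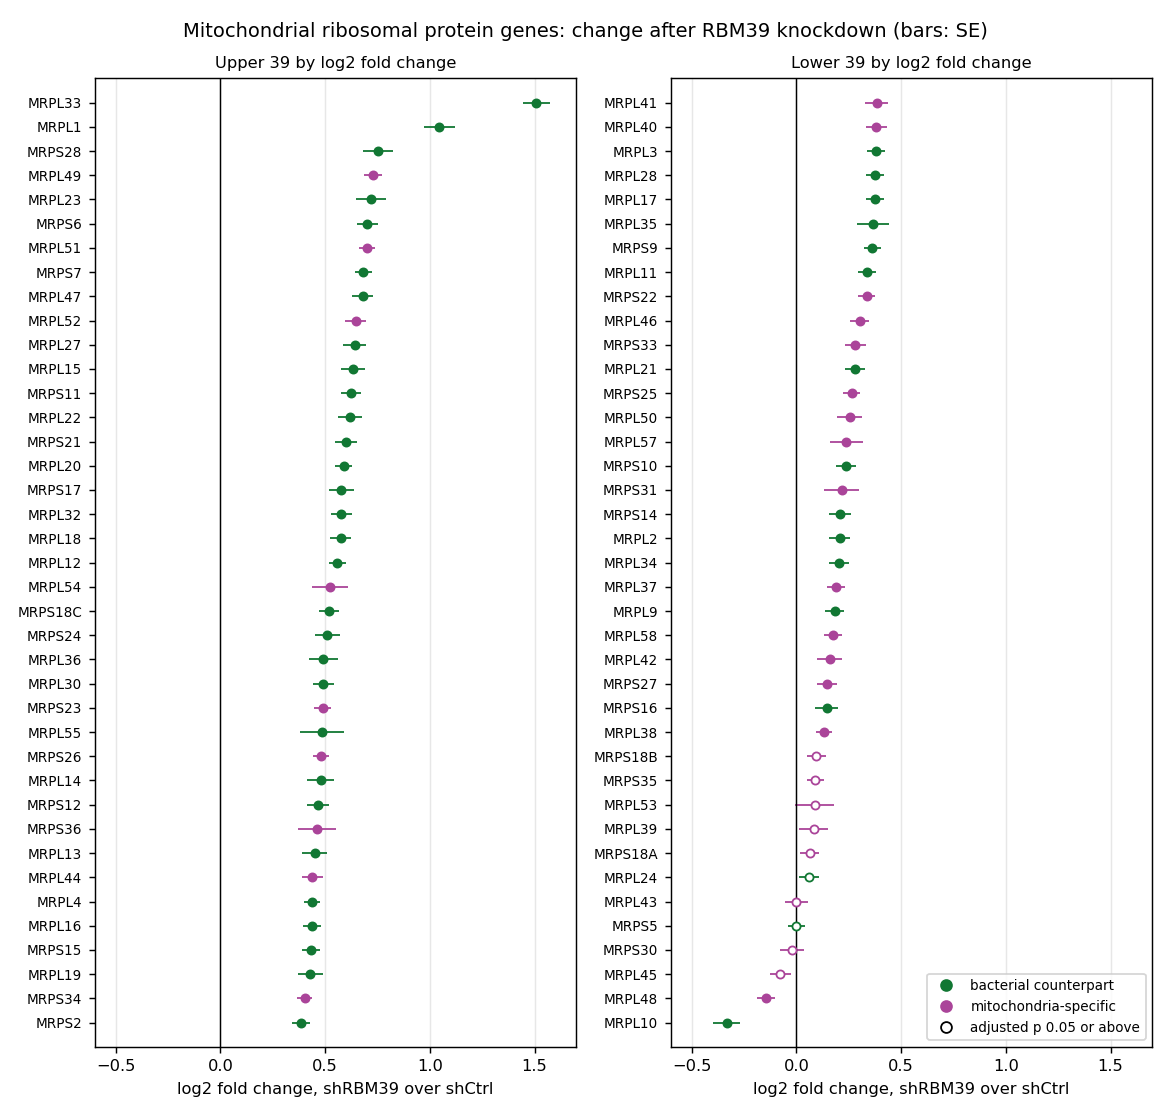
Log2 fold change (shRBM39 over shCtrl, x axis) of each of the 78 members (y axis), ordered from highest to lowest over the 2 panels, with bars of 1 SE and colours for genes with a bacterial counterpart and mitochondria-specific genes. Open circles mark the 10 members that did not pass the test, and MRPL10 and MRPL48 are the 2 called lower.

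The 49 MRPL genes and the 29 MRPS genes moved by similar amounts. Of the MRPL genes, 42 were called higher and 2 lower, with a median log2 fold change of 0.38. Of the MRPS genes, 24 were called higher and 0 lower, with a median of 0.39. MRPS30 and MRPS18A, although named for the small subunit, sit in the large subunit in structures of the human ribosome, and MRPS36 has since been assigned to the oxoglutarate dehydrogenase complex.

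MRPL33, the counterpart of a small bacterial large-subunit protein, showed the highest fold change of all members. It was at 14.0, 13.1 and 15.8 CPM in shCtrl and at 40.7, 39.5 and 41.8 CPM in shRBM39. The groups were far apart relative to the spread within each, with a log2 fold change of 1.51 ± 0.06 (SE, 2.85-fold; edgeR adjusted p = 3.95e-20). The exons of MRPL33 share 324 nt with BRE on the same strand, and BRE held 693 counts over the 6 libraries against 3169 for MRPL33. MRPL33 also carried an alternative exon, printed with the splicing records.

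MRPL1 followed. The protein forms the L1 arm, a mobile arm next to the site where spent tRNA leaves. Its level was 10.1, 11.1 and 10.0 CPM in shCtrl and 21.4, 20.7 and 22.4 CPM in shRBM39, so each shRBM39 library lay above every shCtrl library (log2 fold change 1.05 ± 0.08, SE, edgeR adjusted p = 4.08e-14). MRPL33 and MRPL1 were the 2 members at least 2-fold higher.

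The stalk, which recruits translation factors to the large subunit, was divided. MRPL12, the stalk protein itself, was at 80.7, 80.7 and 77.5 CPM in shCtrl and 117.6, 119.6 and 115.0 CPM in shRBM39 (log2 fold change 0.56 ± 0.04, SE, edgeR adjusted p = 5.16e-14). MRPL11, which lies at the stalk base, rose from a mean of 66.6 ± 2.15 to 84.2 ± 2.67 CPM (SD, n = 3; log2 fold change 0.34, edgeR adjusted p = 3.49e-08). MRPL10, which anchors MRPL12 to the ribosome, went the other way, at 29.0, 26.5 and 28.8 CPM in shCtrl and 21.9, 21.2 and 23.7 CPM in shRBM39. The MRPL10 groups did not overlap, and its log2 fold change of -0.33 ± 0.06 (SE, edgeR adjusted p = 2.40e-05) was the lowest of all members. MRPL12 shares 701 nt of exon with RP13-1032I1.10 on the same strand, a symbol with 12675 counts against 11505 for MRPL12.

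The regions of the large subunit were grouped after the gene table was seen. Since 84.6% of all members and 37.5% of genes at similar levels were called higher, the small counts by region are given as a description. Around the peptidyl transferase centre, where the peptide bond is made, 5 of 5 members were called higher, with a median log2 fold change of 0.44. MRPL3, a core protein next to that centre, had means of 65.7 ± 0.44 CPM in shCtrl and 85.7 ± 2.95 CPM in shRBM39 (SD, n = 3; log2 fold change 0.38, edgeR adjusted p = 1.81e-09).

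At the exit tunnel, through which the new protein leaves, 4 of 7 members were called higher and 0 lower. MRPL23, at the rim of the tunnel, was at 13.9, 14.4 and 12.7 CPM in shCtrl and 22.8, 22.9 and 22.1 CPM in shRBM39, with no overlap (log2 fold change 0.72 ± 0.07, SE, edgeR adjusted p = 8.32e-11). MRPL22, which lines the tunnel, was at 24.8, 23.3 and 23.0 CPM in shCtrl and 35.5, 37.5 and 36.4 CPM in shRBM39, again without overlap (log2 fold change 0.62 ± 0.06, SE, edgeR adjusted p = 1.47e-11). The 3 tunnel members that did not pass were MRPL24, MRPL39 and MRPL45, the last of which attaches the ribosome to the inner membrane. They are named here after their values were seen.

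In the central protuberance, the crest of the large subunit that contacts the small one, 4 of 5 members were called higher and 1 lower. The lower one was MRPL48, at 80.8, 75.04 and 73.8 CPM in shCtrl and 67.7, 69.4 and 70.6 CPM in shRBM39. Its groups did not overlap (log2 fold change -0.14 ± 0.04, SE, edgeR adjusted p = 0.0057), but the call was lost without shCtrl replicate 1, the highest of the shCtrl libraries for this gene (log2 fold change -0.098, adjusted p = 0.0764). MRPL38 of the same region showed the smallest change among the members called higher, from a mean of 185.4 ± 4.94 to 203.2 ± 1.66 CPM (SD, n = 3; log2 fold change 0.13, edgeR adjusted p = 0.00252). MRPL38 shares 1373 nt of exon with RP11-552F3.12 on the same strand.

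Among the other large-subunit members, MRPL49 and MRPL51, both absent from bacterial ribosomes, stood near the top. MRPL49 was at 57.5, 61.1 and 58.1 CPM in shCtrl and 98.8, 99.7 and 94.6 CPM in shRBM39 (log2 fold change 0.73 ± 0.04, SE, edgeR adjusted p = 3.02e-16). MRPL51 was at 120.9, 116.1 and 123.0 CPM in shCtrl and 190.6, 198.6 and 195.6 CPM in shRBM39 (log2 fold change 0.70 ± 0.04, SE, edgeR adjusted p = 3.26e-17). Neither gene had overlapping groups, and both share exon bases with genes on the opposite strand, MRPL49 with FAU and SYVN1 and MRPL51 with NCAPD2. MRPL44, a subunit with a ribonuclease III fold, rose by 0.44 on the log2 scale, MRPL41 by 0.38 and MRPL36, the counterpart of bacterial L36, by 0.49 (edgeR adjusted p = 4.14e-09, 1.33e-07 and 1.19e-07).

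Members with small calls in the large subunit included MRPL58, MRPL9 and MRPL42. MRPL58 is a peptidyl-tRNA hydrolase built into the ribosome, and it was at 68.3, 66.3 and 63.2 CPM in shCtrl and 71.9, 76.7 and 74.8 CPM in shRBM39 (log2 fold change 0.17 ± 0.04, SE, edgeR adjusted p = 0.00107). MRPL9 had a log2 fold change of 0.18 ± 0.05 (SE, edgeR adjusted p = 0.000769). MRPL42 had a log2 fold change of 0.16 ± 0.06 (SE, edgeR adjusted p = 0.0245) and lost its call without shRBM39 replicate 3 (adjusted p = 0.172), without shCtrl replicate 2 (adjusted p = 0.0512) and without shCtrl replicate 3 (adjusted p = 0.0782). The MRPL42 call was lost too with DESeq2 (adjusted p = 0.0748) and with upper-quartile scaling (adjusted p = 0.0747). All 3, and MRPL38, lost their calls when libraries were scaled by their totals alone.

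In the small subunit, MRPS28 had the highest fold change. Its level was 13.4, 12.9 and 14.3 CPM in shCtrl and 24.4, 21.3 and 22.4 CPM in shRBM39, without overlap (log2 fold change 0.75 ± 0.07, SE, edgeR adjusted p = 6.08e-11). MRPS28 is an uncertain case for counting, because 650 nt of its exons lie in RP11-26J3.4 on the same strand, a symbol with 23083 counts against 2110 for MRPS28. MRPS6, the counterpart of bacterial S6, was at 37.9, 32.8 and 35.0 CPM in shCtrl and 56.1, 58.2 and 57.6 CPM in shRBM39 (log2 fold change 0.70 ± 0.05, SE, edgeR adjusted p = 5.49e-14). MRPS6 likewise shares exon bases on its strand with SLC5A3, a transporter gene at the same locus.

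MRPS7, a protein of the head of the small subunit that binds the small ribosomal RNA, was at 114.9, 104.9 and 113.5 CPM in shCtrl and 180.9, 179.3 and 174.8 CPM in shRBM39. These groups did not overlap (log2 fold change 0.68 ± 0.04, SE, edgeR adjusted p = 1.92e-16). MRPS12, at the decoding centre, was at 30.5, 28.6 and 28.0 CPM in shCtrl and 40.1, 40.0 and 40.2 CPM in shRBM39 (log2 fold change 0.46 ± 0.05, SE, edgeR adjusted p = 2.52e-09). MRPS15, which binds the small ribosomal RNA early in assembly in bacteria, was at 69.9, 71.6 and 70.5 CPM in shCtrl and 92.1, 94.5 and 99.5 CPM in shRBM39 (log2 fold change 0.43 ± 0.04, SE, edgeR adjusted p = 9.75e-11). The mitochondria-specific MRPS22 and MRPS34 rose by 0.34 and 0.40 on the log2 scale (edgeR adjusted p = 2.32e-08 and 1.08e-11).

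MRPS16 and MRPS27 changed least among the small-subunit members called higher. MRPS16, a bacterial-type protein, was at 30.5, 31.0 and 30.1 CPM in shCtrl and 33.3, 32.4 and 35.6 CPM in shRBM39 (log2 fold change 0.15 ± 0.05, SE, edgeR adjusted p = 0.0225). Its call was lost without shCtrl replicate 3 (adjusted p = 0.0622) and without shRBM39 replicate 3 (adjusted p = 0.121). MRPS27, a pentatricopeptide repeat protein, had a log2 fold change of 0.15 ± 0.05 (SE, edgeR adjusted p = 0.01), which did not pass under scaling by totals or without shCtrl replicate 3. MRPS16 likewise lost its call under scaling by totals, with upper-quartile scaling (adjusted p = 0.0772) and with DESeq2 (adjusted p = 0.07).

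The 3 paralogs of bacterial S18 had log2 fold changes from 0.06 to 0.52. MRPS18C was at 68.7, 63.9 and 58.9 CPM in shCtrl and 87.6, 91.4 and 95.4 CPM in shRBM39, with no overlap (log2 fold change 0.52 ± 0.05, SE, edgeR adjusted p = 2.66e-11). MRPS18B was at 66.1, 66.4 and 67.4 CPM in shCtrl and 68.8, 71.9 and 73.0 CPM in shRBM39 (log2 fold change 0.10 ± 0.04, SE, edgeR adjusted p = 0.057). MRPS18A was at 70.9, 66.8 and 66.6 CPM in shCtrl and 67.5, 71.9 and 74.0 CPM in shRBM39 (log2 fold change 0.06 ± 0.05, SE, edgeR adjusted p = 0.241). The groups overlapped for MRPS18A, while those of MRPS18B did not although it missed the threshold, and the differences between paralogs were not tested. Without shRBM39 replicate 1 MRPS18B passed (log2 fold change 0.125, adjusted p = 0.0289). Under scaling by totals MRPS18A and MRPS18B had log2 fold changes of -0.061 and -0.028.

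The 10 members that did not pass were MRPL24, MRPL39, MRPL43, MRPL45, MRPL53, MRPS5, MRPS18A, MRPS18B, MRPS30 and MRPS35, with log2 fold changes between -0.08 and 0.10 and adjusted p between 0.0568 and 0.996. MRPS30 was at 27.4, 28.1 and 27.9 CPM in shCtrl and 26.1, 27.1 and 29.0 CPM in shRBM39, with overlapping groups (log2 fold change -0.02 ± 0.06, SE, edgeR adjusted p = 0.787).

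Members with a bacterial counterpart and mitochondria-specific members were described separately, a grouping made after the gene table was seen and not tested. MRPS18A and MRPS18B are homologues of bacterial S18 but occupy other places in the ribosome, and were put with the mitochondria-specific members. Of 46 with a counterpart, 43 were called higher and 1 lower, with a median log2 fold change of 0.47. Of 32 mitochondria-specific members, 23 were called higher and 1 lower, with a median of 0.25. Over all genes tested 29.2% were called higher, and 37.5% of those with a mean CPM within the range of the members. Under scaling by totals the medians were 0.35 and 0.12. Of the 10 members that did not pass, MRPL24 and MRPS5 have a counterpart and the other 8 are mitochondria-specific.

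**Figure D2:**
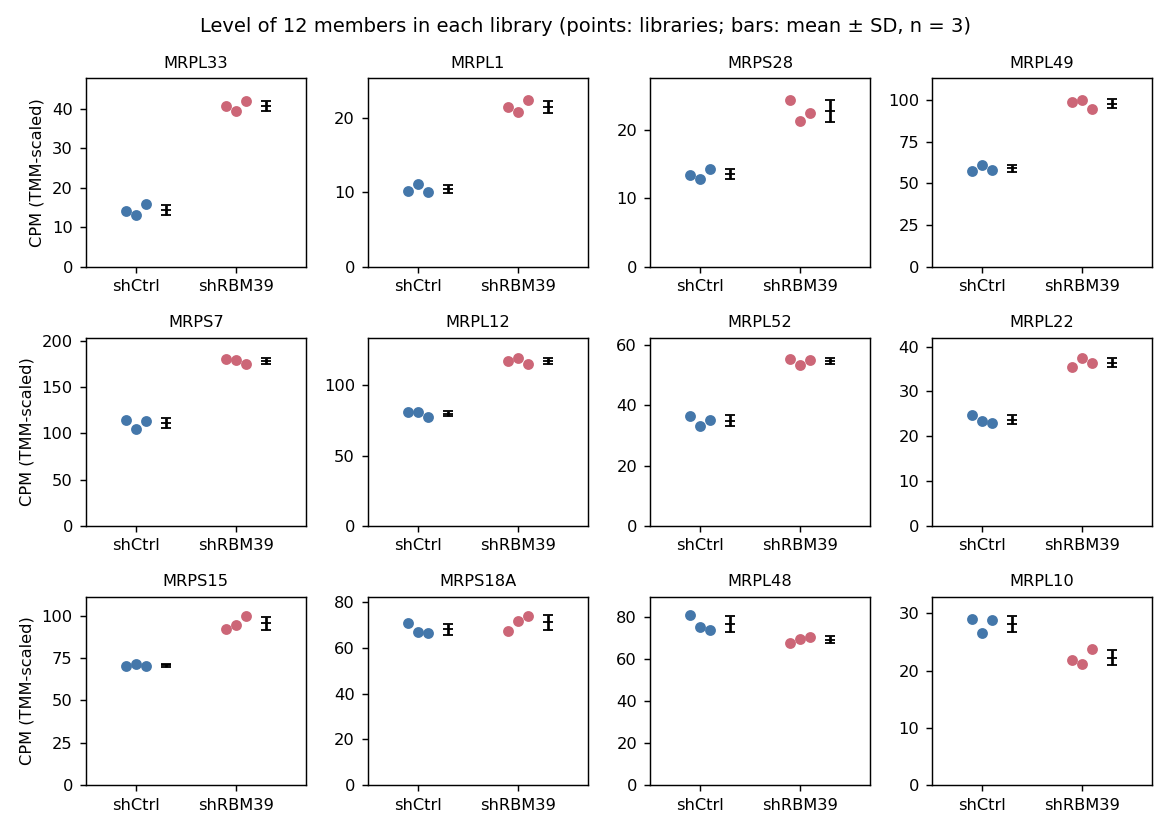
Level of 12 members (TMM-scaled CPM, y axes starting at 0) in each of the 3 shCtrl and 3 shRBM39 libraries, with the mean and SD beside the points. MRPL33 rises from 13.1 to 15.8 CPM up to 39.5 to 41.8 CPM, the MRPS18A points overlap, and MRPL48 and MRPL10 are lower in shRBM39.

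Per length of annotated exons, the levels of the members spanned a wide range. Mean levels in shCtrl, in RPKM (read counts divided by exon length and by library total), ran from 1.60 to 193.6, a ratio of 121, with a median of 17.4 and an interquartile range of 8.93 to 26.5 RPKM. Cytosolic ribosomal protein genes had a median of 186.4 RPKM in the same libraries. The highest member was MRPS34 at 193.6 ± 2.99 RPKM, ahead of MRPS26 at 91.8 ± 1.53 RPKM (SD, n = 3). MRPL12 and MRPL51 followed at 80.8 ± 1.80 and 80.7 ± 2.20 RPKM, and this pair did not differ beyond its spread. At the low end, MRPL42 was at 1.60 ± 0.03, MRPL35 at 3.49 ± 0.19, MRPL55 at 3.77 ± 0.53 and MRPS30 at 4.67 ± 0.10 RPKM. MRPL35 and MRPL55 did not differ beyond their spread. This length joins all annotated exons of a symbol, so the order by RPKM depends on it too. MRPL42, at a mean of 25.2 CPM in shCtrl, has an exon length of 16393 nt, the longest of the members. The median of the members was 2502 nt, and MRPS34 has 1097 nt.

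**Figure D3:**
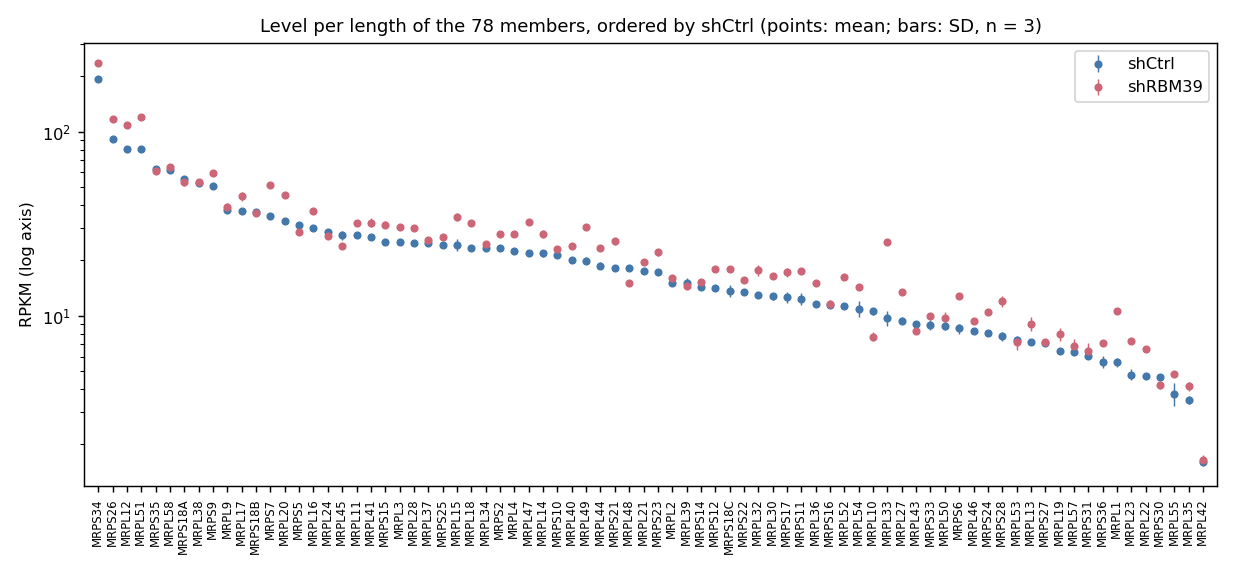
Mean RPKM (log axis) of the 78 members in shCtrl and shRBM39, ordered by the shCtrl mean, with bars of 1 SD over 3 libraries. MRPS34 stands highest at 193.6 RPKM and MRPL42 lowest at 1.60 RPKM in shCtrl, and the shRBM39 point of MRPL33 lies far above its neighbours.

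The size of the change showed little relation to how a member was built or how strongly it was expressed. Across the 78 members, which share the same 6 libraries and are not independent replicates, the log2 fold change had Pearson r = -0.16 and Spearman rho = -0.10 with log2 exon length, r = -0.03 and rho = -0.01 with exon GC content, and r = -0.08 and rho = -0.06 with log2 mean CPM. Lowly expressed members had wider errors, the SE of the log2 fold change running from 0.04 to 0.10 over the members, with MRPL55 the least precise at 0.10.

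Other genes of the same pathway were read from the same fit, in which 29.2% of all genes were called higher and 29.9% lower. Among 5 ribosome subunits without an MRP symbol, AURKAIP1, CHCHD1 and GADD45GIP1 were called higher by 0.49, 0.41 and 0.38 on the log2 scale. DAP3, a GTP-binding subunit of the small ribosomal subunit, was at 133.7, 128.2 and 127.5 CPM in shCtrl and 117.7, 117.4 and 119.8 CPM in shRBM39, without overlap (log2 fold change -0.13 ± 0.04, SE, edgeR adjusted p = 0.00349). The fifth, PTCD3, did not pass the test.

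Of 28 genes for assembly of the mitochondrial ribosome, 18 were called higher (64.3%) and 6 lower, with a median log2 fold change of 0.25. RPUSD4, a pseudouridine synthase that acts on mitochondrial ribosomal RNA, rose from 29.2, 28.9 and 28.0 CPM to 71.6, 75.6 and 74.1 CPM (log2 fold change 1.36 ± 0.05, SE, edgeR adjusted p = 1.92e-22). MPV17L2, an inner-membrane protein needed for ribosome assembly, rose from 4.07, 4.48 and 4.23 CPM to 12.5, 9.01 and 9.97 CPM (log2 fold change 1.31 ± 0.12, SE, edgeR adjusted p = 1.82e-11). NOA1, a GTPase, and METTL15, a ribosomal RNA methyltransferase, fell by 0.57 and 0.37 on the log2 scale (edgeR adjusted p = 3.64e-10 and 0.000134).

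Of 17 mitochondrial translation factors and messenger stabilisers, 10 were called higher (58.8%) and 3 lower, with a median of 0.19. SLIRP, which stabilises mitochondrial messengers together with LRPPRC, rose by 0.75 and the elongation factor TSFM by 0.52 on the log2 scale. The elongation factor homologue GUF1 and the membrane insertase OXA1L fell by 0.29 and 0.22. Under scaling by totals the counts of this list were 7 higher and 5 lower.

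The RNAs of the mitochondrial genome itself were mostly higher too. Of 15, 13 were called higher (86.7%) and 1 lower, with a median log2 fold change of 0.33, MT-ND3 and MT-ND6 rising by 0.69 and 0.53. The one called lower was MT-RNR2, the RNA of the large mitochondrial ribosomal subunit, at 12240, 11970 and 12410 CPM in shCtrl and 9225, 9323 and 9385 CPM in shRBM39 (log2 fold change -0.39 ± 0.04, SE, edgeR adjusted p = 9.64e-12). The lowest log2 fold change called higher was 0.19, for MT-ND2, a call that was lost under scaling by totals. The libraries were made with a kit for messenger RNA, so the ribosomal RNA values depend on what passed that selection, and its part in the MT-RNR2 value was not tested.

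Of 12 regulators of mitochondrial biogenesis, 3 were called higher and 3 lower, with a median of 0.04, and the 50% called was under the 59.1% of all genes tested. TFAM, the packaging factor of the mitochondrial genome, rose by 0.34 and GABPA, a subunit of an ETS-type activator of nuclear genes for mitochondria, by 0.29 on the log2 scale. PPARGC1A, a coactivator of mitochondrial biogenesis, was at 5.21, 6.03 and 6.79 CPM in shCtrl and 1.99, 2.498 and 2.48 CPM in shRBM39, and MYC was at 340.0, 363.0 and 328.9 CPM and at 180.7, 176.4 and 172.3 CPM. Neither gene had overlapping groups, and they fell by 1.37 and 0.96 on the log2 scale (edgeR adjusted p = 9.27e-10 and 1.46e-20).

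Cytosolic ribosomal protein genes went mostly the other way. Of 79, 15 were called higher and 39 lower, with a median log2 fold change of -0.09, RPLP0 and RPL13A falling by 0.46 and 0.43 and RPS26 and RPL35 rising by 1.02 and 0.43. With upper-quartile scaling 11 were called higher and 42 lower, and with totals 10 and 60. Both scalings moved the median over all genes down, from -0.01 to -0.05 and -0.14. More lower calls follow from that shift, so these counts are no separate check of the direction. Their summed level was 68870 ± 1487 CPM in shCtrl and 63510 ± 2314 CPM in shRBM39 (SD, n = 3). The difference between cytosolic and mitochondrial ribosomal protein genes was not tested.

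**Figure D4:**
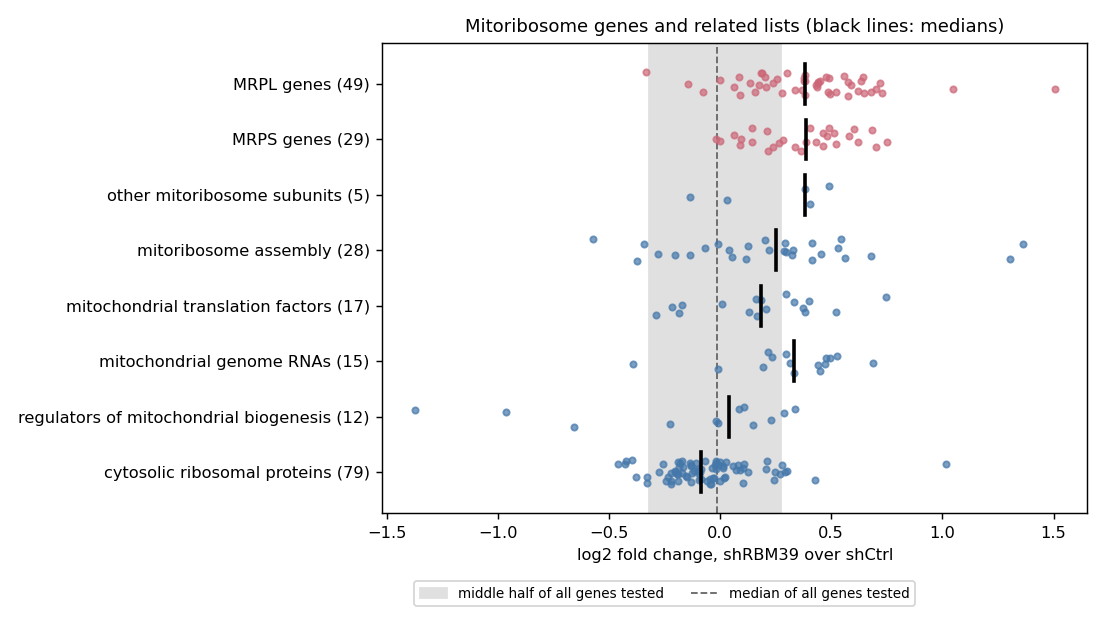
Log2 fold change (shRBM39 over shCtrl, x axis) of each gene in 8 groups, with black lines at the medians, a grey band for the interquartile range and a dashed line for the median of all genes tested. The MRPL and MRPS medians of 0.38 and 0.39 lie to the right of the band, and the median of the cytosolic ribosomal proteins is -0.09.

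Splicing was read from the table of events that the authors deposited, which holds 1582 records chosen by them for a difference between groups, 1263 of them skipped exons. The inclusion level of an exon is the share with it among messengers that either carry it or join the 2 flanking exons of the record directly. It was estimated by rMATS from reads on the exon or joining it to its neighbours and reads that skip it. The table calls the groups 1 and 2 without a key, so no level is assigned to shCtrl or shRBM39 here. Because the records were chosen for a difference, levels are given as a description without a test. Members of the MRP family held 5 records in 4 of the 78 genes, all skipped exons. All listed records fall in 1198 gene names, beside 18243 genes tested for level, and an excess or lack of records in the family was not tested. In all 5 the exon was included less in group 1 and the levels of the groups did not overlap. Of all listed skipped exons, 72.6% were lower in group 1, 56.3% did not overlap and 42.8% were both.

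The exons of 3 of these genes are printed to show the letters that are kept or left out, on the strand of the gene in GRCh38, with the exon in capitals and 20 bases of each flanking intron in lower case. In order they are MRPL33 exon 3 (window chr2:27774404-27774550, plus strand), MRPL22 exon 3 (window chr5:154950801-154950958, plus strand) and MRPS15 exons 3 and 5 (windows chr1:36462068-36462183 and chr1:36460672-36460796, minus strand).
MRPL33 exon 3: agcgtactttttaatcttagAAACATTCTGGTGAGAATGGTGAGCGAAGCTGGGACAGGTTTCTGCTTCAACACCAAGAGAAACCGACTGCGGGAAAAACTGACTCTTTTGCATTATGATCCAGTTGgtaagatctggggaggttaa
MRPL22 exon 3: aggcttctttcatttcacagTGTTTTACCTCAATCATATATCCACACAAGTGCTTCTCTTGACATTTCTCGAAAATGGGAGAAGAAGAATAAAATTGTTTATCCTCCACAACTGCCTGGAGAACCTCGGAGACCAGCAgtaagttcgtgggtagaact
MRPS15 exon 3: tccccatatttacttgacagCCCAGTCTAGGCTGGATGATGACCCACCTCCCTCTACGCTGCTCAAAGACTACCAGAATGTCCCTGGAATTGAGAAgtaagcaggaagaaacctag
MRPS15 exon 5: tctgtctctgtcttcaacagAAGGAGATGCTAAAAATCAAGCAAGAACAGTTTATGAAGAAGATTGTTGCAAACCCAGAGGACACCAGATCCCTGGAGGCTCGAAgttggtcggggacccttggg

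In MRPL33, exon 3 of the 4 exons of the canonical transcript (chr2:27774424-27774530, 107 nt, all coding) was included at 24.3%, 23.8% and 24.2% in group 1 and at 55.3%, 48.8% and 48.9% in group 2. The 3 levels of group 1 lay close together and far from those of group 2, and the means differed by -26.9 percentage points. These levels rested on 469, 414 and 487 reads of the event in group 1 and 114, 126 and 129 in group 2. Skipping reads summed to 868 in group 1 and 128 in group 2, and inclusion reads to 502 and 241. The annotation holds a transcript that skips the exon, with 162 nt of coding sequence in place of 195 nt. Long and short forms of MRPL33 that differ by this exon are known from colorectal cancer.

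In MRPL22, exon 3 of 7 (chr5:154950821-154950938, 118 nt, all coding) was included at 68.8%, 71.4% and 73.4% in group 1 and at 94.8%, 91.1% and 89.9% in group 2, a difference of -20.8 points on 234 to 338 reads. Of the annotated transcripts without this exon, 1 is protein-coding, with 378 nt of coding sequence in place of 618 nt in the canonical transcript. Another is of the type sent to nonsense-mediated decay, the pathway that removes messengers with an early stop. Computed without the correction for the number of positions that reads can take, the difference was -13.1 points.

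In MRPL52, the exon of the record (chr14:22830964-22831037, 74 nt, plus strand) is absent from the canonical transcript, which has another exon of 65 nt between the same flanking exons, and holds no coding bases in the annotated transcripts that include it. It was included at 14.8%, 33.5% and 28.3% in group 1 and at 52.5%, 70.0% and 74.8% in group 2. Reads that join the 65 nt exon of the canonical transcript to the flanking exons count neither as inclusion nor as skipping. The levels are therefore not shares of all MRPL52 messengers. The mean difference of -40.2 points was the largest among the 5 records and rested on the fewest reads, 34 to 47 in a library. The window over its start (chr14:22830944-22830966) shows the last 20 intron bases in lower case, which the splicing machinery reads as the 3′ splice site, and the first exon bases in capitals.
MRPL52 exon start: accctattgttgctctctagGGG

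MRPS15 held 2 records that share their skipping reads, 11, 27 and 14 in group 1 and 4, 6 and 1 in group 2, which join exon 2 to exon 6 and so leave out exons 3 to 5, 210 nt in all. Exon 3 (chr1:36462088-36462163, 76 nt) was included at 74.9%, 48.3% and 72.0% in group 1 and at 85.4%, 85.3% and 95.8% in group 2. Exon 5 (chr1:36460692-36460776, 85 nt) was included at 91.1%, 79.0% and 88.9% in group 1 and at 95.9%, 94.3% and 98.9% in group 2. The second library of group 1 was the lowest for both, and without it the differences went from -23.7 to -15.4 points for exon 3 and from -10.04 to -6.38 points for exon 5. Since the 2 records rest on the same few skipping reads, they count as 1 event. Their levels differ although the exons are left out together, with means of 65.1% for exon 3 and 86.3% for exon 5 in group 1. Inclusion reads there summed to 149 and 539. Each record takes exons 2 and 6 as the flanking exons, with 3 exons between them, so these levels are not read as shares of MRPS15 messengers.

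None of the 5 exons had a length divisible by 3, whereas 47.4% of all listed skipped exons did, although the 210 nt left out together in MRPS15 keep the frame. By size of the difference among the 1263 listed skipped exons, MRPL52 ranked 139 and MRPL33 ranked 420, with MRPS15 exon 3 at 521, MRPL22 at 625 and MRPS15 exon 5 at 1261. All 4 genes were called higher as whole genes in shRBM39, as were 84.6% of all members. Their log2 fold changes were 1.51 (MRPL33), 0.65 (MRPL52), 0.62 (MRPL22) and 0.43 (MRPS15), and a relation to the exons was not tested. MRPL52 was at 36.6, 33.2 and 35.1 CPM in shCtrl and 55.5, 53.5 and 54.9 CPM in shRBM39, without overlap (edgeR adjusted p = 1.88e-13). Gene counts sum over all forms of a gene, so they do not show which form changed.

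**Figure D5:**
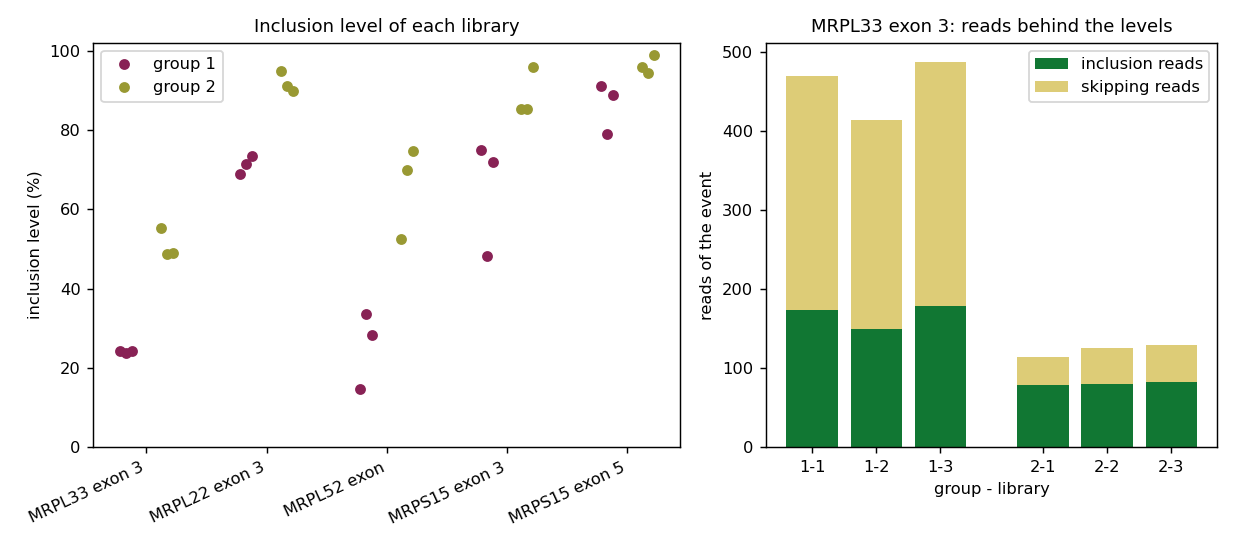
Left, inclusion level (percent, y axis) of the 5 MRP exons in each of the 3 libraries of group 1 and group 2 of the deposited splicing table, with group 1 below group 2 for every exon. Right, the inclusion and skipping reads behind the levels of MRPL33 exon 3, with 414 to 487 reads per library in group 1 and 114 to 129 in group 2.

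Promoters were searched for the motifs of factors known to drive nuclear genes for mitochondria, in windows from 250 bases before to 50 after the start site (RefSeq, GRCh38.p14), on both strands. Of the 78 members, 69 had a window. The YY1 motif ATGGCGGC was in 27.5% of the members' windows and 3.21% of all 27305 windows. In most of these members it lay only after the start site, from position 9 (MRPL38) to 38 (MRPL22). It lay before that site in MRPL36 and MRPL47, and on both sides in MRPL19. Positions over all windows were not compared. The ETS motif CCGGAAGT, read by the GABPA complex, was in 15.9% and 4.44%, and the NRF1 motif in 11.6% and 6.28%. At least 1 of the 3 was in 49.3% of the members' windows and 12.5% of all windows. The Sp1 motif GGGCGG was in 60.9% and 44.6%, and TATAAA in 2.9% and 12%. All windows include those of genes without enough counts to be tested here. Shares among expressed genes alone were not computed, so the differences are not shown to be particular to the MRP family. None of these motifs contains another of them, and a match is a description and not a bound site.

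For these groups only medians are given. The median log2 fold change was 0.44 for the 11 members with the ETS motif and 0.38 for the 58 without, 0.37 and 0.39 for NRF1 (8 and 61 members), and 0.25 and 0.42 for YY1 (19 and 50 members), none of which was tested. The 150 bases before the start site of 3 named members with a match are printed 5′ to 3′ on the strand of the gene, with matches of the NRF1, ETS and YY1 motifs in capitals. They are MRPL36 (chr5:1799838-1799987, minus strand, NRF1 then YY1 motif), MRPL51 (chr12:6493263-6493412, minus strand, ETS motif) and MRPS34 (chr16:1773135-1773284, minus strand, ETS motif), where a match on the other strand reads as the reverse complement.
MRPL36: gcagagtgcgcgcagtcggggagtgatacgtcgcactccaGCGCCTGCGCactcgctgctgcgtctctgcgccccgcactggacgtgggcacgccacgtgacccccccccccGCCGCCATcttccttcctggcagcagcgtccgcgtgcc
MRPL51: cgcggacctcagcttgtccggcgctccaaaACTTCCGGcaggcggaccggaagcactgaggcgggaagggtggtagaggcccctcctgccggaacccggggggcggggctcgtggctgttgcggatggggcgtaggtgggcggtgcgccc
MRPS34: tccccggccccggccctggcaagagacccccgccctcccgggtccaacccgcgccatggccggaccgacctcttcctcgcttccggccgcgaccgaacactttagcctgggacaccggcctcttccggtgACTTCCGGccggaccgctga

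Counts of some members cannot be separated from those of neighbours or copies. Exon bases are shared with another symbol by 40 members, 15 of them with one on the same strand and 29 with one on the opposite strand, and whether the counting used strand is not given in the sources used here. MRPS31 held 1566 counts over the 6 libraries, while its pseudogenes MRPS31P4 and MRPS31P5 held 1583 and 1193, so its reads may be divided among near-identical copies. MRPS18AP1 held 448 counts, 5.47% of those of MRPS18A.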

How the data were processed

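Per the submitters' processing notes, reads were trimmed with Trimmomatic 0.36, aligned to GRCh38 with STAR 2.5.3a and counted per gene with featureCounts (Subread 1.5.1), and edgeR 3.12.1 is named too. The authors deposited raw counts per gene for 6 libraries, a table of RPKM values, which equal the counts divided by exon length and library total, and a table of rMATS splicing records with reads and inclusion levels, whose rMATS version is not given in the sources used here. The method text names a protocol with unique identifiers, and how these were treated in the counts is not given. Columns named NC were read as shCtrl. The authors' columns of p-values, FDR and level differences were not used, and levels were recomputed from the deposited reads and effective lengths.

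Counts were fitted over all genes with edgeR 4.0.16 (R 4.3.3, filterByExpr, TMM, quasi-likelihood test), Benjamini-Hochberg adjustment over 18243 genes and a threshold of 0.05. The biological coefficient of variation was 0.035, and no pair of replicates agreed within sampling noise (chi-square per degree of freedom 2.11 to 4.21). Members, lists and tests were chosen with earlier results of these data known, and the grouping by bacterial counterpart and by region after the gene table was seen. Named members are those called, without overlap, whose log2 fold change was among the 8 at either end, the 4 highest and 4 lowest RPKM in shCtrl, those with a splicing record, a list chosen by role (MRPL12, MRPL10, MRPL11, MRPS12, MRPS7, MRPS16, MRPS22, MRPS34, MRPL3, MRPL44, MRPL58, MRPL41, MRPL36 and the MRPS18 paralogs), and in each other list the 2 highest and 2 lowest called genes. Alternatives were DESeq2 1.42.0, other scalings and filters, limma 3.58.1 on log2 RPKM with pseudocounts of 1 and 0.1, a correction for GC content and length, a replicate block and each library left out. The fits were also run on simulated data, with the same coefficient of variation for all genes and as many genes raised as lowered. That run does not test the choice of scaling, and its outcome is not given here. Exons were set against GENCODE, which held 94.2% of the members' exons, and read with pysam 0.24.0. With 129 to 5250 counts per member and library, counting error is small beside the fold changes for most members.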

Additional observations from a re-analysis of the deposited data

How the results depend on the processing

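Of the 78 members, 54 kept their direction and their side of the threshold in all 15 alternatives, and 53 of the 66 called higher kept that call. The number called was 65 with DESeq2 and with upper-quartile scaling, 58 with library totals alone, 59 with limma on log2 RPKM, 70 with the correction for GC content and length, 64 at an adjusted p under 0.01, and 65 to 69 without 1 library (63 to 67 of them higher). Over all genes, calls numbered 10790 in the reported fit, 9081 with DESeq2, 10849 with upper-quartile scaling and 11146 with totals. They numbered 10511 and 10519 with log2 of RPKM plus 1 and plus 0.1, 10833 with the correction and 9025 under 0.01. Without 1 library they numbered 10138 to 10263. Of these calls, 33.6% (RPKM plus 1) to 54.4% (correction) were higher. Against a log2 fold change of 0.5, 15 members were called, all higher, 11 MRPL and 4 MRPS, beside 2232 of all genes, 1031 of them higher. Without 1 library, 43 to 44 MRPL genes were called (41 to 42 higher) and 22 to 26 MRPS genes, all higher. The median log2 fold change of the members was 0.351 with upper-quartile scaling, 0.260 with totals, 0.250 and 0.259 with log2 of RPKM plus 1 and plus 0.1, and 0.380 to 0.416 without 1 library, highest without shRBM39 replicate 1. In all, 9 members changed sign in at least 1 alternative, none of them called in the reported fit. Of those described by their own values, MRPS18A changed sign to -0.061 (totals), -0.060 and -0.061 (RPKM plus 1 and plus 0.1), MRPS18B to -0.028, -0.027 and -0.028, and MRPS30 to 0.019 without shRBM39 replicate 1 (-0.059 to 0.019 over the libraries left out) and 0.026 with the GC and length correction. None of these values passed the test, but MRPS30 was called lower with totals (-0.144, adjusted p = 0.0354), and the cause was not tested. The inclusion difference of MRPL22 was -13.11 points without the effective-length correction.

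The replicate numbers did not pair the libraries. Same-numbered libraries had correlations of 0.00612, -0.0282 and 0.000114 in their deviations from the group means, and not every library correlated best with its own number. With a replicate block 68 members were called, 66 higher and 2 lower, the same numbers as without it.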
